A study of Mus musculus with 3 samples.

Results

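The glucocorticoid receptor gene Nr3c1 and 7 genes tied to its action in lymphocytes, Glcci1, Tsc22d3, Fkbp5, Per1, Sgk1, Zbtb16 and Fkbp4, were followed across 3 arrays of a mouse T-lymphoma line. Every probe set whose only gene symbol was 1 of these 8 was taken, which gave 24 probe sets of the 45101 on the array and 8 genes of 18194 with a named probe set. The genes were listed with earlier results of these arrays known, among them the high Glcci1 signal in cells with the Q84E mutant, so the list was in part chosen by the signals on these 3 arrays, and that signal is a description that supports nothing by itself. Total RNA came from WR19L, a T-lymphoma cell line of BALB/c mice. One array was made from parental cells and 1 from DKO cells, a WR19L derivative deficient in flippases, with stable expression of human wild-type ATP11A. The last was made from DKO cells with stable expression of Q84E mutant ATP11A. The ATP11A protein is a flippase, a membrane ATPase that moves phospholipids across the plasma membrane to its inner leaflet. All cells were grown in medium with fetal calf serum and were not treated, so none had a glucocorticoid treatment. Glucocorticoid in the serum was not measured here, so the cells cannot be taken to have been free of it. DKO cells without a transgene were not analysed here, and neither the promoter of the transgene nor whether a line was 1 clone is given in the labels. In every ratio over parental cells the knockout, the transgene and the derivation of the line therefore cannot be told apart.

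The glucocorticoid receptor is a nuclear receptor that waits in the cytoplasm in a complex with the chaperone HSP90 and its partners. Hormone binding releases it to the nucleus, where it binds DNA at a palindrome of hexamers close to AGAACA and changes the transcription of nearby genes. In T cells and thymocytes glucocorticoids are known for suppressing cytokine genes and for driving apoptosis of immature and malignant cells. Of the members, Fkbp4 and Fkbp5 encode cochaperones of the receptor complex, and the others besides Nr3c1 are known as genes that glucocorticoid raises.

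Promoter sequences, from 250 bases before to 50 bases after an annotated start, were found in RefSeq (GRCm38.p6) for 6 of the 8 genes, with 15 starts in all. They were searched on both strands for the glucocorticoid response palindrome, which is the hexamer AGAACA, any 3 bases and the reverse complement of that hexamer, for the hexamer alone, for the cyclic AMP response element TGACGTCA and for the E-box CACGTG. The palindrome overlaps the hexamer search by its construction. It was present in 3 of 32851 promoters, or 0.00913%, and a start of Sgk1 was among them. The hexamer was present in 19.0% of all promoters and in 4 of the 15, from Sgk1 and Tsc22d3. The Sgk1 window is printed because it holds the palindrome, that of Tsc22d3 because it holds the hexamer, and that of Glcci1 because this gene had the largest ratio although none of the 4 motifs was found in the window. Capitals mark the palindrome and the hexamers.
Sgk1, chr10:21993640-21993939, plus strand: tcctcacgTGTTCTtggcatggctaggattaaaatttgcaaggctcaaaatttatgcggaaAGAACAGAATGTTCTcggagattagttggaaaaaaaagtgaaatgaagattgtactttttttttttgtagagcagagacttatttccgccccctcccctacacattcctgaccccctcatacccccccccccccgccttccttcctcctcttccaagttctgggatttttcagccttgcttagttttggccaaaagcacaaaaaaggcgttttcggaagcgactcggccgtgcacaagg
Tsc22d3, chrX:140600473-140600772, minus strand: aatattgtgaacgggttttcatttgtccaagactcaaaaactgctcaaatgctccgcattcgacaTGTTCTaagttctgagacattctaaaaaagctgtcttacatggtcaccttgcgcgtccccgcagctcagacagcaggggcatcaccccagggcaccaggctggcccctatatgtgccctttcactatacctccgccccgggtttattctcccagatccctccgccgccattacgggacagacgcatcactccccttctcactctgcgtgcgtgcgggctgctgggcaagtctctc
Glcci1, chr6:8509350-8509649, plus strand: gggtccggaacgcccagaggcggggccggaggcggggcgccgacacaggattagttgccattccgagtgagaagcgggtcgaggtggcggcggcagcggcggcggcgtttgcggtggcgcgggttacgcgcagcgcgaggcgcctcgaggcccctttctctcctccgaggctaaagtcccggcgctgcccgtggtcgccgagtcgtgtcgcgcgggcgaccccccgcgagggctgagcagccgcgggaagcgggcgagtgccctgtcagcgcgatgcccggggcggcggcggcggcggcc
In the Sgk1 window the palindrome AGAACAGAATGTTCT lay at -189 to -175 relative to the start, with a further TGTTCT at -242 to -237, which overlaps the E-box of that window at -246 to -241. The TGTTCT of Tsc22d3 lay at -185 to -180. An E-box was present in 7.15% of all promoters and in 1 each of Sgk1, Per1, where it lay at -166 to -161, and Fkbp5, at -169 to -164. The cyclic AMP response element was found in none of the 15 windows and in 1.79% of all promoters. A match in a window of this length is a description of the letters there, and no binding was measured.

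Each value is a MAS5 signal, a background-corrected brightness of a probe set on a linear scale, after every array had been scaled to the same trimmed mean of 500.0. Signals under the median of their own array (50.3 in parental cells, 50.5 with wild-type and 55.5 with Q84E ATP11A) are called under the floor, and ratios were taken after raising them to it. A ratio with 1 level under the floor is a bound. With 1 array per group there is no replicate, no test and no p-value, and the precision is limited by the number of arrays. The size of a difference was read against the probe set error, the SD of the log2 ratio between probe sets of the same gene at a like level, scaled to 1 probe set. For signals from the 50th to the 75th percentile it was 0.33 to 0.35. It was 0.18 to 0.19 between the 75th and 90th and 0.105 to 0.111 above the 90th, and it holds no spread between cultures. Of the 24 member probe sets, 17 lay above the floor on all 3 arrays, 2 on the Q84E array alone and 5 on none. The arrays carried T cell signals. Of 9 T cell markers with a probe set 7 reached the floor on every array, with summed signals of 35172 in parental cells, 30382 with wild-type and 34291 with Q84E ATP11A, while Cd3e and Cd5 lay under it on all 3. None of 15 B cell, myeloid, fibroblast or epithelial markers reached the 75th percentile on any array. Their summed signals were 365 to 422 for the B cell, 222 to 289 for the myeloid and 162 to 308 for the fibroblast and epithelial list. The part of these differences in the results below was not tested.

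**Figure D1:**
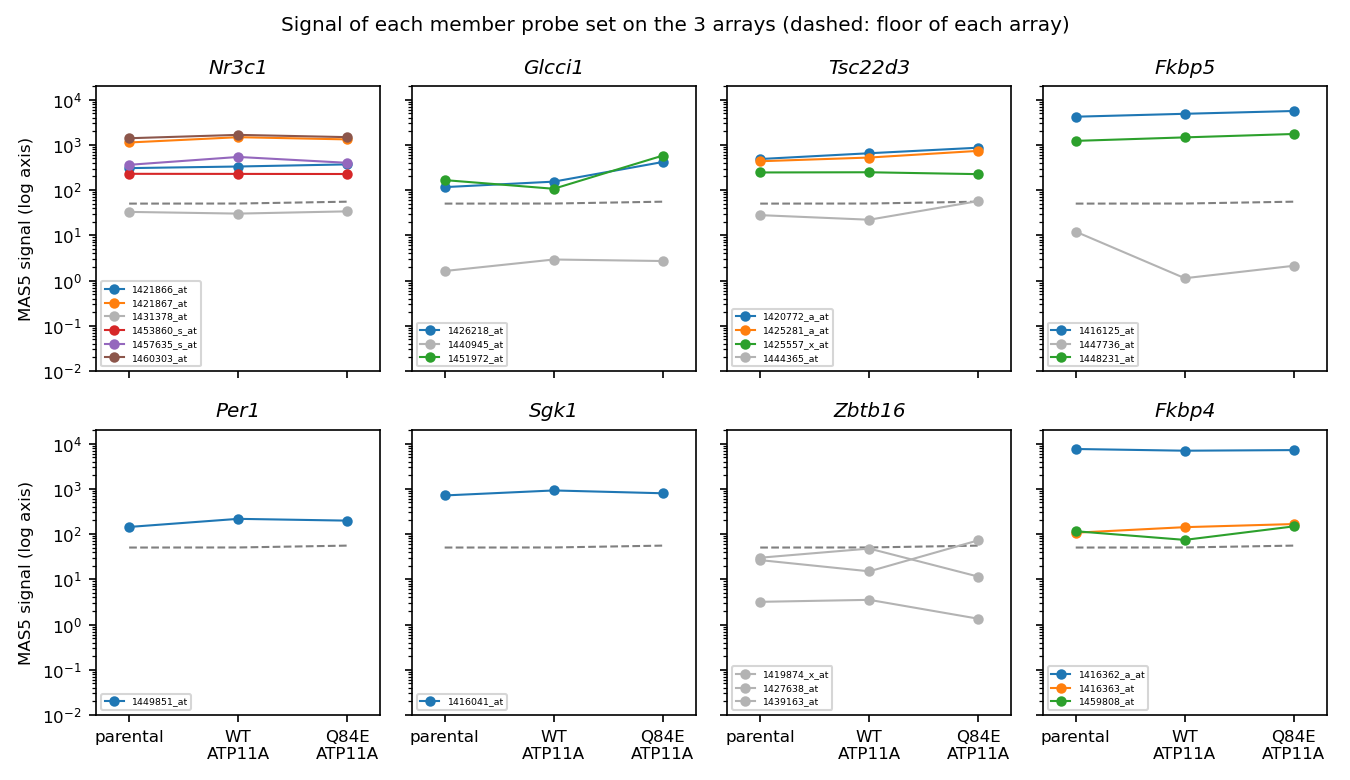
Signal of every member probe set on the 3 arrays, 1 panel per gene, on a log axis, with the floor of each array as a dashed line and probe sets not above the floor on all arrays in grey. Both measured Glcci1 probe sets are highest in Q84E cells, Tsc22d3 and Fkbp5 are lowest in parental and highest in Q84E cells in 2 probe sets each, and the Zbtb16 probe sets lie at or under the floor apart from 1 value of 72.8.

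The receptor gene itself differed little between the lines. The brightest Nr3c1 probe set gave a signal of 1401 in parental cells, 1663 in wild-type ATP11A cells and 1482 in Q84E cells. Its log2 ratio was -0.17 for Q84E over wild-type ATP11A, 0.25 for wild-type ATP11A over parental and 0.081 for Q84E over parental, each less than 2 probe set errors. These are bulk RNA levels, in which fewer cells with a transcript and less of it per cell cannot be told apart. The next probe set gave 1129, 1478 and 1320 in the same order, and its ratio of wild-type ATP11A over parental was 2.13 times the error. In both the wild-type ATP11A array was the highest and the parental array the lowest. A probe set ending in _s_at, of the kind that can share sequence with other transcripts, showed the same order more widely, with signals of 362, 540 and 401. Its log2 ratios of 0.58 for wild-type ATP11A over parental and -0.43 for Q84E over wild-type ATP11A were 3.16 and -2.36 times the probe set error. The remaining probe sets differed from this order. The signals of 1 were 306, 332 and 370, those of the other _s_at probe set were 229, 228 and 227, and the sixth lay under the floor on every array. Over the 5 measured probe sets the log2 ratio of Q84E over parental thus ran from -0.014 to 0.27, and none reached 2 probe set errors. With the arrays set to a common median the brightest one turned from 0.081 to -0.062, a change no larger than its error.

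Of the receptor's relatives, Nr3c2, which encodes the mineralocorticoid receptor that also binds glucocorticoid, gave signals of 52.6, 47.9 and 74.9 in the parental, wild-type and Q84E cells, close to the floor. Pgr, the progesterone receptor gene, lay under the floor on all 3 arrays at 24.8, 34.0 and 48.2.

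Fkbp5 and Fkbp4 encode the immunophilin cochaperones FKBP51 and FKBP52. FKBP51 holds the receptor in a state with low hormone affinity and its gene is itself a receptor target, while FKBP52 favours transport of the receptor to the nucleus. The brighter Fkbp5 probe set gave 4191 in parental, 4862 in wild-type ATP11A and 5606 in Q84E cells, and the other gave 1225, 1463 and 1740. The steps were alike in both, with log2 ratios of 0.21 and 0.26 from parental to wild-type ATP11A cells and of 0.21 and 0.25 from there to Q84E cells. For Q84E over parental the ratios were 0.42 and 0.51, which is 3.78 and 2.62 times the probe set error and 1.34-fold for the brighter one. Of all genes compared, dim ones included, 86.5% had a lower ratio than that, so by this rank the size was not unusual. Of all probe sets above the floor on all arrays, 9.31% were at least 2 errors higher in this comparison. The third Fkbp5 probe set lay under the floor on every array.

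Fkbp4 gave no such order. Its brightest probe set had signals of 7581, 6948 and 7172 in the parental, wild-type and Q84E cells, with log2 ratios of at most 0.13 in size. The dimmer ones, at 107, 142 and 166 and at 115, 74.2 and 148, differed from it and from each other. The last was 1.99-fold higher in Q84E than in wild-type ATP11A cells, 3.05 times the probe set error, while the brightest gave 1.03-fold. The Fkbp4 ratio of Q84E over wild-type ATP11A turned from 0.046 to -0.091 when the arrays were set to a common median, and became 0.42 when its probe sets were averaged.

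Glcci1, named for its induction by glucocorticoid in T-lymphoma cells and thymocytes, was the member furthest apart. The brighter probe set gave a signal of 166 in parental cells, 107 in wild-type ATP11A cells and 580 in Q84E cells. The other gave 116, 154 and 418. The Q84E array was the highest in both, whereas the lower arrays changed places. Q84E cells were 5.42-fold above wild-type ATP11A cells by the brighter probe set and 2.72-fold by the other, with log2 ratios of 2.44 and 1.44. Over parental cells the ratios were 1.80 and 1.84, more than 5 times the probe set error in both. Wild-type ATP11A cells over parental cells gave -0.64 by the brighter probe set and 0.40 by the other, each under 2 errors and opposite in sign, so no order of these arrays was measured. The third Glcci1 probe set had signals of at most 2.92 and lay under the floor throughout. When the floor was raised to the 75th percentile, which lies above the parental and wild-type signals, the ratio of Q84E over wild-type ATP11A was a bound of 0.64 and no longer reached 2-fold.

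Glcci1 belongs to a small family with Fam117a and Fam117b, which differed far less. Fam117a gave 367, 405 and 451 in the parental, wild-type and Q84E cells, and Fam117b gave 754, 877 and 1097. Both were highest in Q84E cells, at log2 ratios of 0.30 and 0.54 over parental. Among 6892 genes that reached the 75th percentile on at least 1 array, the closest to Glcci1 in its centred log2 levels over the 3 arrays was P2rx3, at a distance of 0.50. Drc1, Plpp3, Gimap8 and Iqce followed at 0.61, 0.63, 0.67 and 0.69. P2rx3 encodes an ATP-gated cation channel and gave signals of 291, 267 and 902. Its log2 ratio of Q84E over wild-type ATP11A was 1.76. Likeness over 3 arrays is a coarse measure, since any gene that is high on the Q84E array alone comes near.

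Tsc22d3 encodes GILZ, a leucine zipper protein that is induced by glucocorticoid and restrains AP-1 and NF-kappa-B. Its brightest probe set gave 487 in parental, 653 in wild-type ATP11A and 866 in Q84E cells. The next gave 434, 525 and 737. The order was the same in both, and Q84E over parental was 1.78-fold and 1.70-fold, or 4.29 and 3.94 times the probe set error. Q84E over wild-type ATP11A was 1.33-fold and 1.40-fold. A probe set ending in _x_at, of the least specific kind, gave 246, 248 and 225 and did not follow this order. The fourth probe set was at 28.0, 22.2 and 57.3, above the floor only in Q84E cells. In the gene family, Tsc22d1, a relative induced by TGF-beta, was highest in wild-type ATP11A cells by its brightest probe set, at 1454, 2385 and 1479, although its 6 other probe sets past the filter gave log2 ratios of Q84E over wild-type from -1.15 to 0.46. Tsc22d2 gave 1689, 1553 and 1728. Tsc22d4 gave 901, 972 and 1072, in the order of Tsc22d3. The other Tsc22d4 probe set did not share the first step, with a log2 ratio of wild-type ATP11A over parental of -0.52. For Tsc22d2 both probe sets were lower in this step, at -0.12 by the brightest and -0.99 by the other.

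**Figure D2:**
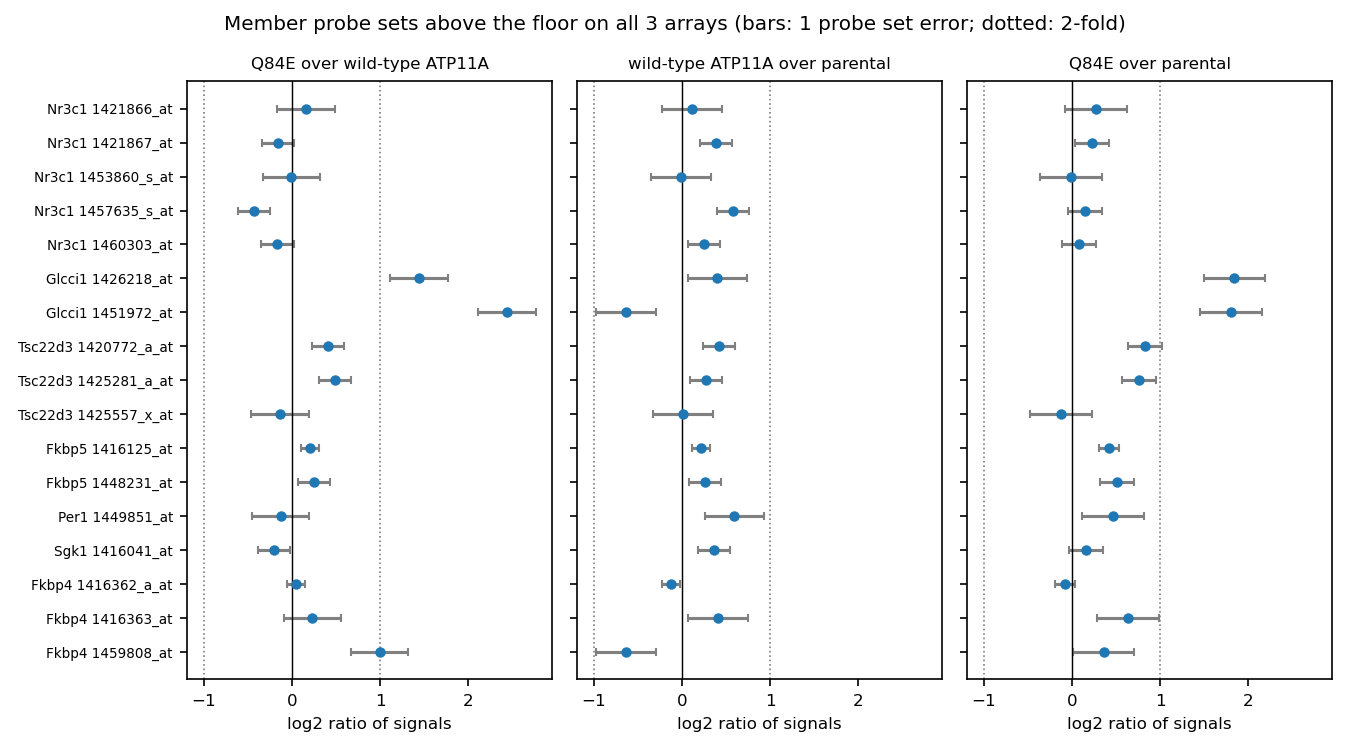
Log2 ratio of signals for the 17 member probe sets above the floor on all 3 arrays, in the 3 comparisons, with bars of 1 probe set error to each side and dotted lines at 2-fold. The 2 Glcci1 probe sets lie past 2-fold for Q84E over wild-type ATP11A and over parental cells, and no member probe set lies past it for wild-type ATP11A over parental.

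Sgk1 and Per1 are early targets of the receptor, and both are also induced by other signals. SGK1 is a kinase related to AKT that regulates ion transport and cell survival. Its probe set gave 713 in parental, 919 in wild-type ATP11A and 796 in Q84E cells, so the wild-type ATP11A array was the highest. The log2 ratio was 0.37 for wild-type ATP11A over parental, 2.01 times the probe set error, and -0.21 for Q84E over wild-type ATP11A, 1.13 errors in size. The ratio of Q84E over parental was 0.16. Sgk1 was thus not among the members that stood highest in Q84E cells. Any part of the palindrome in its promoter window in these levels was not tested. Its relative Sgk3 was level at 508, 510 and 518, Sgk2 gave 44.8, 65.0 and 95.1 near the floor, and Akt1 and Akt2 gave 3324, 2965 and 2737, and 1183, 1129 and 1306. Nedd4l, a ubiquitin ligase gene whose product SGK1 phosphorylates, lay under the floor on every array at 21.1, 6.80 and 21.7. Ndrg1, whose product is a substrate used to read SGK1 activity and whose transcript is raised by hypoxia and differentiation, gave 168, 258 and 925. These are transcript levels, and kinase activity was not measured.

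Per1 encodes a repressor of the circadian clock. It gave 143 in parental, 217 in wild-type ATP11A and 198 in Q84E cells, with the parental array the lowest. The log2 ratio was 0.60 for wild-type ATP11A over parental and 0.46 for Q84E over parental, 1.75 and 1.32 times the larger error that applies at this level. Among 14 clock partners, none differed 2-fold by its brightest probe set in any comparison. Of all genes 0.318% to 1.64% did so, depending on comparison and direction, a share at which a list of this length would also give none. The median log2 ratio of the clock partners for Q84E over parental was 0.30 against 0.068 for all genes compared. Per2 and Per3, named for this reason alone, are also in the wider set of glucocorticoid-induced genes below. Nr1d2, a nuclear receptor that represses clock genes, gave 1624, 2236 and 2688. Its steps of 0.46 and 0.27 were each matched by the other probe set, at 0.40 and 0.22. Bhlhe40, a repressor induced by many stimuli, gave 772, 650 and 957, Clock 418, 565 and 575, and Tef 745, 862 and 986. The other Clock probe sets ran from -0.56 to 0.46 for wild-type ATP11A over parental. Those of Tef ran from -0.45 to 1.02 for Q84E over parental.

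Zbtb16 encodes PLZF, the transcription factor of innate-like T cells, and is strongly induced by glucocorticoid in many cell types. It was close to undetected. Its probe sets gave 30.0, 47.7 and 11.4, then 26.5, 15.0 and 72.8, and 3.17, 3.51 and 1.34 in the parental, wild-type and Q84E cells. Only the value of 72.8 lay above a floor, and the other probe sets were lowest in the same cells. Zbtb16 entered the gene comparisons through that array alone and had to be higher there, so its bounds of 1.44-fold over wild-type ATP11A and 1.45-fold over parental cells carry no weight.

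Taken gene by gene with the brightest probe set, 1 of the 8 members, Glcci1, was at least 2-fold higher in Q84E than in wild-type ATP11A cells, and none was lower. The same limit was passed upwards by 1.05% and downwards by 0.318% of the 11617 genes compared. Glcci1 was at rank 2 from the highest among them, and the other members lay between the 0.53 of Zbtb16, a bound, and the -0.21 of Sgk1. Over the 7 members above the floor on all arrays, without Zbtb16, the median was 0.046 and 4 were above 0. Of all 9605 such genes 55.5% were above 0, with a median of 0.028, so the members as a list did not stand apart in this comparison. With Zbtb16 the median was 0.13 against 0.047 for all genes compared, and with quantile normalization it was 0.17 against 0. By probe set, 5 of 17 were at least 2 errors higher, from Glcci1, Tsc22d3 and Fkbp4, against 7.86% of 17670 probe sets above the floor on all arrays. In the other direction 1 of 17 was at least 2 errors lower, an Nr3c1 probe set, against 5.06%. The Glcci1 signal in Q84E cells was known when the list was chosen, so the counts that hold it are a description.

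For wild-type ATP11A over parental no member passed 2-fold, and 0.560% of genes did so upwards and 0.912% downwards. Per1 was the highest, at 1.51-fold, above 96.7% of genes. Glcci1, at -0.64 by its brighter probe set and 0.40 by the other, has no settled place, and its ratio was a floor value of 0.015 when the floor was raised to the 75th percentile. Of the 7 members above the floor on all arrays 5 were above 0, Glcci1 and Fkbp4 being below, where 52.7% of all such genes were above. The median of the 7 was 0.25 against 0.010 for all such genes. Of the 17 probe sets, 5 were at least 2 errors higher, from Nr3c1, Tsc22d3, Fkbp5 and Sgk1, and none was that much lower, where in each direction 4.86% of all probe sets were.

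For Q84E over parental 1 member was at least 2-fold higher, again Glcci1, beside 1.64% of genes, and none was lower, beside 0.792%. This comparison shares an array with each of the others, so its values are not separate results. Of the 7 members above the floor on all arrays 6 were above 0, where 57.4% of all such genes were. The median was 0.42 against 0.046. Glcci1 is among the 6, and the list was chosen with its Q84E signal known. This count, the median and the probe set count below therefore describe the list and support nothing by themselves. Fkbp4 was at -0.080 by its brightest probe set and at 0.30 with its probe sets averaged. Tsc22d3 lay above 97.1% of genes, Per1 above 88.7%, Fkbp5 above 86.5%, and Nr3c1, at 51.9%, in the middle. The 6 probe sets at least 2 errors higher were those of Glcci1, Tsc22d3 and Fkbp5, 2 each, against 9.31% of all probe sets, and none was that much lower, against 6.98%. Probe sets of a gene read the same RNA and are not replicates of the condition.

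**Figure D3:**
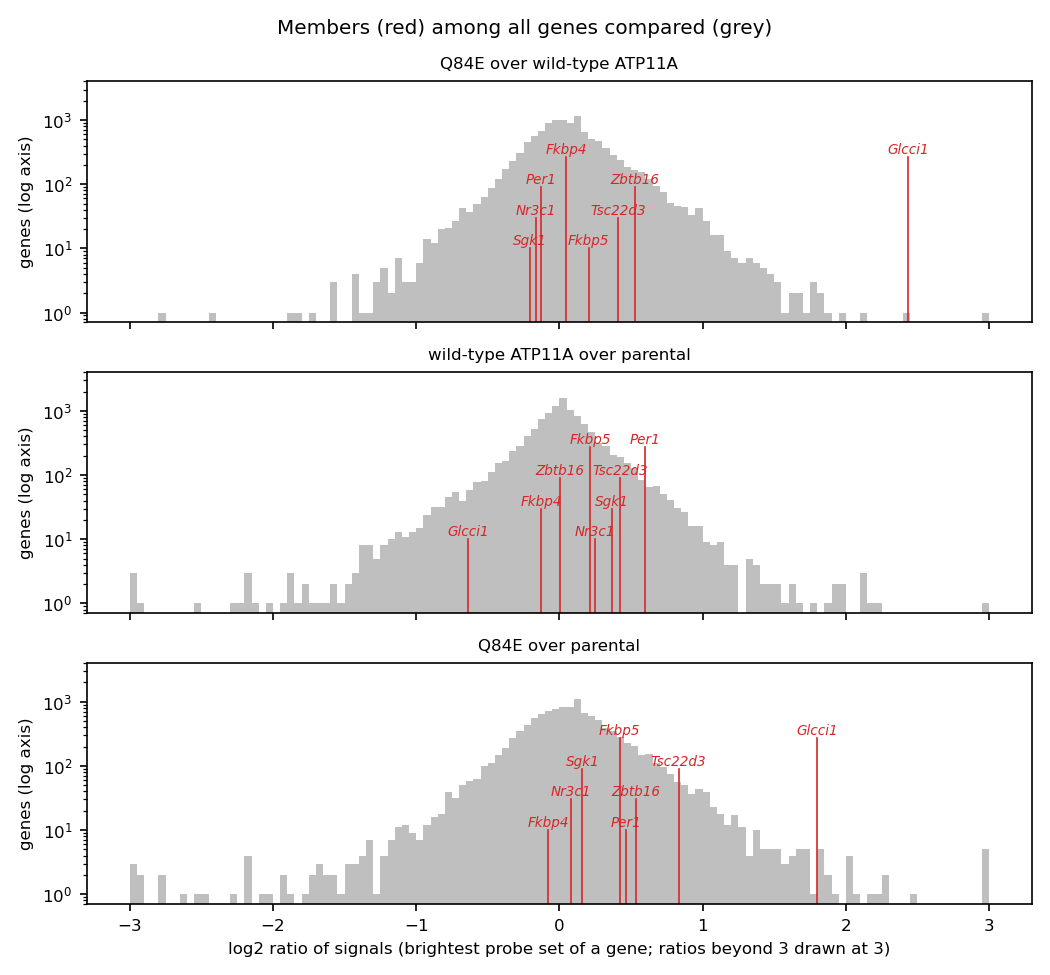
Log2 ratio of each member by its brightest probe set, as red lines, over the histogram of the 11617 genes compared, with the number of genes on a log axis and 1 panel per comparison. Glcci1 stands in the upper tail for Q84E over wild-type ATP11A (2.44) and over parental (1.80), and the other members lie within the body of the histogram.

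The wider set of genes known to be raised by glucocorticoid was then read beside the members. Of 30 such genes, 25 passed the filter and 5 did not, among them Klf9, Pdk4 and Cebpd, which reached the floor on no array. For Q84E over wild-type ATP11A 2 of the 25 were at least 2-fold higher, Ddit4 and Rgs2, and none was lower, beside the 1.05% and 0.318% of all genes given above. Rgs2 and Errfi1 passed the filter through the Q84E array alone and had to be higher there. Of the 20 that lay above the floor on all arrays 16 were above 0, where 55.5% of all such genes were. Their median was 0.35 against 0.028. This list too was written with earlier results of these arrays known. Its shares and medians, here and below, are a description and support nothing by themselves. The median over the 25 was 0.32 against 0.047 for all genes, and it became 0.18 with a common median and 0.22 with quantile normalization, against -0.091 and 0 for all genes. T cell markers differed as much in the same comparison, with a median of 0.36 over 7 genes, 6 of them above 0, and with Cd3d at 0.71 and Cd2 at 0.95. For wild-type ATP11A over parental the marker median was -0.42, so the wild-type ATP11A array was low in these markers. Their part in the result was not tested. Many of the induced genes also respond to other signals, such as FOXO factors, stress or hypoxia.

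Among them Ddit4, which encodes the mTORC1 inhibitor REDD1, gave 1562 in parental, 2261 in wild-type ATP11A and 5991 in Q84E cells. Txnip, a thioredoxin-binding protein that limits glucose uptake, gave 304, 441 and 808, and its other probe set had a log2 ratio of 1.09 for the first step. Btg1, an antiproliferative gene, gave 478, 696 and 1051. In each of these genes the parental array was the lowest and the Q84E array the highest, the order also seen for Tsc22d3 and Fkbp5. Klf13, a zinc finger transcription factor gene, differed between the last lines instead, at 626, 658 and 1029.

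Other genes of this set went the opposite way or did not differ by much. The metallothionein genes Mt1 and Mt2, induced by metals as well as by glucocorticoid, were lowest in Q84E cells, with log2 ratios of -0.43 and -0.62 against wild-type ATP11A. The proapoptotic gene Bcl2l11, which encodes BIM, gave 1021, 921 and 1056, and the chemokine receptor gene Cxcr4 gave 4940, 4553 and 5687. These 4 were picked after their values were seen.

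For Q84E over parental 5 of the 25 were at least 2-fold higher and 1 was lower, beside 1.64% and 0.792% of all genes. The higher ones were Ddit4 at 1.94, Txnip at 1.41, Pik3ip1 at 1.18, Btg1 at 1.14 and Rgs2 at 1.11, of which Rgs2 lay above the floor in Q84E cells alone, so that its value is a bound. With all probe sets of a gene averaged the count was 2, and with a common median it was 3. The gene that was lower was Il7r, the interleukin-7 receptor gene, at 186 in parental cells and under the floor, at 16.3 and 7.19, in both DKO lines. Il7r passed the filter through the parental array alone and had to be highest there, so both of its ratios over parental cells are bounds. For wild-type ATP11A over parental Il7r was also the only gene of this set past 2-fold, beside 0.912% of all genes lower and 0.560% higher. In that comparison 13 of the 20 genes above the floor on all arrays were above 0, where 52.7% of all such genes were. Their median was 0.13 against 0.010. Rgs2, Pik3ip1 and Il7r are named because they make up these counts.

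**Figure D4:**
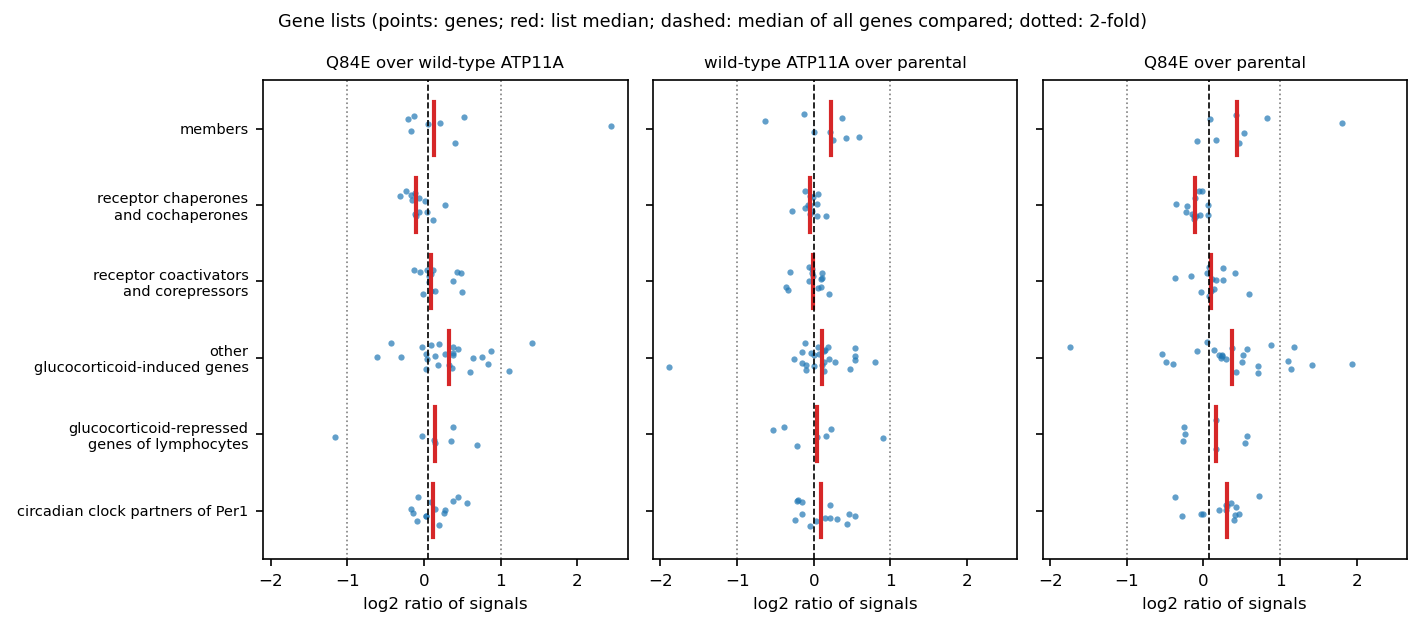
Log2 ratio of every compared gene in 6 gene lists, 1 panel per comparison, with the list median in red, the median of all genes compared as a dashed line and 2-fold as dotted lines; points are spread vertically only for legibility. The other glucocorticoid-induced genes have a median of 0.32 for Q84E over wild-type ATP11A, while the receptor chaperones lie close to 0.

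The components that handle the receptor were read next. By the brightest probe set, none of 13 chaperone and cochaperone genes and none of 14 coregulator genes passed 2-fold in any comparison. The low share of all genes past that limit would also give this count. The chaperone median was -0.10 for Q84E over wild-type ATP11A, with 9 of 13 below 0. Minus the median of all genes it was -0.15 as deposited and -0.078 with quantile normalization. A common median shifts all ratios of a comparison alike, so it cannot change this difference and is no check of it. Hsp90ab1, Ppid and Ptges3 had no named probe set. Cdc37, which brings kinases to HSP90, gave 7317, 6750 and 5717 in the parental, wild-type and Q84E cells. Bag1, a regulator of HSP70 that also binds the receptor, gave 4345, 4854 and 3921, the phosphatase gene Ppp5c 3442, 3313 and 2937, and Ipo13, an import factor for the receptor, 979, 805 and 969.

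Of 14 genes that glucocorticoid is known to lower in lymphocytes 7 passed the filter. Myc, the growth regulator whose fall precedes lymphoma cell death under glucocorticoid, was level at 6131, 6318 and 6896. Bcl2, an inhibitor of apoptosis, was highest in Q84E cells, at 7031, 8197 and 10409, and the early activation marker Cd69 gave 363, 406 and 528. Ccnd3, which encodes cyclin D3, gave 2175, 1867 and 1839, while its other probe set was higher in Q84E than in wild-type ATP11A cells by 1.10. Only Tnf passed 2-fold, and it was named for that reason. It was lower in Q84E than in wild-type ATP11A cells by its 1 probe set past the filter, beside 0.318% of all genes. Its signals were 103, 193 and 86.1 in the parental, wild-type and Q84E cells. Il2, Ifng and Il4 lay under the floor on all arrays.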

How the data were processed

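The values the authors deposited are linear array intensity, 1 signal per probe set and array. MAS5 was the tool, per the submitters' processing notes. Its version and a genome build were not given in the sources used here. From them, log2 levels, ratios and counts were computed in Python 3.11.15 with pandas 2.3.3. Names came from the platform's annotation table. A gene was represented by its probe set with the highest mean signal and compared if it reached the 50th percentile on at least 1 array. A single scaling factor per array can spread a shift of many genes over the others. The members and gene lists were chosen with earlier results of these data known. From each longer list, up to 4 genes with the largest ratio among those reaching the 75th percentile were named, besides all members and short families, and the 5 genes most like Glcci1. Alternatives for scaling, floor, offset, probe set choice and fold limit were run, and the steps were tested on simulated data. The 932 probe sets with several symbols and 9211 not listed stayed unnamed.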

Additional observations from a re-analysis of the deposited data

How the results depend on the processing

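No paired analysis was possible because each group has 1 array and no test was made, and no array could be left out. No member's 2-fold difference changed sign under any of the alternatives. With a common median the members' median was 0.30 for Q84E over parental and -0.011 for Q84E over wild-type ATP11A, and that of the other glucocorticoid-induced genes 0.22 and 0.18, with 3 and 1 of them 2-fold higher. That scaling lowered the median of all genes from 0.047 to -0.091 for Q84E over wild-type ATP11A and from 0.068 to -0.075 for Q84E over parental. Quantile normalization gave the members 0.36 for Q84E over parental and the induced genes 0.25, and 0.22 with 1 gene 2-fold higher for Q84E over wild-type ATP11A. With the floor at the 75th percentile 0 members were 2-fold higher in either Q84E comparison. Their median was 0.12 for Q84E over parental and 0.11 for wild-type ATP11A over parental. The induced genes then had medians of 0.088, 0.072 and 0.015 for Q84E over parental, Q84E over wild-type and wild-type over parental, with 3, 1 and 0 higher and 0 lower throughout. With the floor at the 25th percentile, or with no floor, 2 members were higher in each Q84E comparison, Zbtb16 being the second, the induced genes' median for Q84E over parental was 0.52, and 1 of them was higher for wild-type over parental. With no floor 1 was also lower for Q84E over wild-type. With 50 added before log2, 3 induced genes were higher for Q84E over parental and 1 for Q84E over wild-type. With all probe sets averaged the members' median for Q84E over parental was 0.36, and 2 induced genes were higher. At a 1.5-fold limit 2 members were higher for Q84E over parental, and 1 was higher and 1 lower for wild-type over parental. The induced genes then counted 8 higher for Q84E over parental, 7 higher and 1 lower for Q84E over wild-type, and 1 higher for wild-type over parental. Over genes above the floor on all arrays the members' median for Q84E over wild-type was 0.046, 1 induced gene was higher in that comparison, and 0 were lower in any. That filter and the alternatives for the induced genes were added after seeing the data. Signals near the floor limit what can be said of Zbtb16, Per1 and the dimmer probe sets.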

Other observations

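Other genes around the receptor were read in the same way. Among 14 coregulator genes the coactivators Ncoa3 and Ep300 were highest in Q84E cells, at signals of 419, 447 and 631 and of 1093, 1045 and 1456 in the parental, wild-type and Q84E cells. The corepressor gene Nrip1 gave 2221, 1729 and 2330, and its other probe sets ran from -0.40 to 0.26 in log2 ratio of wild-type ATP11A over parental. Med14, a Mediator subunit gene, gave 2763, 2225 and 2138, while its other probe sets ran from -0.16 to 0.65 for Q84E over parental. The median of the list for Q84E over wild-type ATP11A was 0.092 against 0.047 for all genes compared. Hsd11b1, which encodes the enzyme that regenerates active glucocorticoid in cells, was under the floor in parental and wild-type ATP11A cells, at 15.3 and 19.3, and at 80.7 in Q84E cells. It passed the filter through the Q84E array alone and had to be higher there, so its ratios are bounds and carry no weight. Hsd11b1 was singled out after its values were seen. H6pd, which supplies that enzyme with its cofactor, gave 382, 429 and 402, and the transporter gene Abcc1 837, 905 and 988.

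Of the 8 further FK506-binding protein genes that passed the filter none differed 2-fold. Of all genes 0.318% to 1.64% did so, depending on comparison and direction, a share at which a list of this length would also give none. Fkbp1a gave 11037, 10483 and 9860, Fkbp3 8473, 9122 and 7847, Fkbp8 1834, 2207 and 2325, and Fkbp15 499, 501 and 473. The other Fkbp15 probe sets were not level, with log2 ratios from 0.44 to 0.94 for wild-type ATP11A over parental. Among 10 partners of Zbtb16 and genes of innate-like T cells, Sh2d1a, which encodes the adaptor SAP, was the only one past 2-fold. It was lower in wild-type ATP11A than in parental cells by its 1 probe set past the filter, beside 0.912% of all genes. Its signals were 566, 232 and 345 in the parental, wild-type and Q84E cells. Id2, an inhibitor of E proteins, was highest in wild-type ATP11A cells at 455, 664 and 389, and its other probe set had log2 ratios of 0.55 and -0.65 for the same steps. Zbtb1 gave 1043, 1346 and 1279, and Zbtb7a 511, 604 and 650.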
